A study of Mus musculus with 6 samples.

Results

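The interstitial matrix is the material between cells: collagen fibrils, the microfibrils and elastic fibres beside them, and the proteoglycans and adhesive glycoproteins that bind fibrils to each other and to cells. The genes described here are the collagens other than collagen IV and Col18a1, the fibulins, fibrillins, emilins, matrilins, thrombospondins and tenascins, together with a set of named matrix genes such as Fn1, Eln, Dcn, Sparc and Ccn2. They were picked by gene symbol, and each gene was read by its brightest probe set, on the mean of all 6 arrays. The choice gave 68 genes out of 18193 measured. The 68 genes had 137 probe sets, and 41 of them had more than 1.

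The samples were 3 of Fh1 knockout mouse kidney and 3 of kidney from wild-type littermate controls matched for sex and free of disease. Both groups are macro-dissected renal epithelial tissue, and the knockout tissue was cystic. Fh1 encodes fumarate hydratase, which turns fumarate into malate in the tricarboxylic acid cycle. The labels give no strain or age and do not say how the deletion was made. They also leave unstated whether the samples of a group are different mice, and p-values therefore speak only of the spread among these samples.

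Fibrillar collagens are secreted as procollagens, trimmed outside the cell and crosslinked into fibrils, and fibril-associated collagens and small proteoglycans set the spacing and width of those fibrils. Fibronectin, tenascin C and thrombospondins bind integrins and other receptors, and are made in quantity during wound repair. In the kidney, interstitial fibroblasts and pericytes make most of this matrix, and its build-up between tubules is the mark of renal fibrosis.

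The targeted gene was read first. Fh1 was 12.41, 12.34 and 12.22 in the wild-type arrays and 11.54, 11.60 and 11.61 in the knockout arrays, as log2 values. That is 1.67-fold lower in knockout tissue (log2 difference -0.74, SE 0.08, adjusted p = 0.000396, limma with Benjamini-Hochberg adjustment over all 18193 genes), and the groups did not overlap. Over all genes, 21.6% were higher and 27.7% lower in knockout tissue, which are the shares to set beside the counts of markers that follow. All 12 proximal tubule markers were lower in knockout tissue, with a median log2 difference of -1.55. Their mean log2 value was 12.81 to 12.98 in the wild-type arrays and 10.96 to 11.29 in the knockout arrays, so both groups carried a strong tubule signal. Markers of other nephron epithelium (11 measured) gave 1 higher and 7 lower, with means of 11.34 to 11.47 in wild-type and 10.33 to 10.66 in knockout arrays. Of 12 macrophage and leukocyte markers, 10 were higher and 0 lower, and their mean log2 value was 7.45 to 7.70 in the wild-type and 8.75 to 9.18 in the knockout arrays. Of 12 fibroblast and myofibroblast markers, 5 were higher, led by Thy1 (log2 difference 2.06) and Vim (1.81), and 3 were lower, Meox1 (-0.53) among them. Their mean was 7.91 to 8.22 in wild-type and 8.25 to 8.72 in knockout arrays. Of 8 endothelial markers, 1 was higher and 5 were lower, and their mean was 8.65 to 8.88 in wild-type and 8.28 to 8.47 in knockout arrays. Of 6 smooth muscle markers, 1 was higher and 1 lower, with means of 6.84 to 7.03 and 7.00 to 7.04. The part of these shifts in cell type markers in the results on matrix genes was not tested. In dissected tissue, a change in the number of cells of a type and a change in RNA per cell cannot be told apart.

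Promoter sequences are shown for 6 of the genes that the results turn on: Col3a1 and Col1a2, fibril collagens that were higher in knockout tissue, Col8a1, Efemp1 and Sparc, which were higher and belong to other matrix structures, and Col6a1, which did not pass the test. Each line gives the 150 bases before the annotated start of the gene, 5′ to 3′ on the gene's own strand, from RefSeq on build GRCm38.p6. Capitals mark matches, on either strand, to the searched motifs: the TATA box TATAAA, the CCAAT box, the GC box GGGCGG of Sp1 type, the AP-1 type site TGANTCA, the TEAD type site CATTCC, the SMAD type element CAGAC and the CArG box. The coordinates are chr1:45311388-45311537 (plus strand) for Col3a1, chr6:4505468-4505617 (plus) for Col1a2, chr16:57754738-57754887 (minus) for Col8a1, chr11:28853055-28853204 (plus) for Efemp1, chr11:55420081-55420230 (minus) for Sparc and chr10:76726045-76726194 (minus) for Col6a1.
Col3a1: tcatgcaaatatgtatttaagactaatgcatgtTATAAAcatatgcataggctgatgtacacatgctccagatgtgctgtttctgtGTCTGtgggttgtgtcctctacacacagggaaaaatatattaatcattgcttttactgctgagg
Col1a2: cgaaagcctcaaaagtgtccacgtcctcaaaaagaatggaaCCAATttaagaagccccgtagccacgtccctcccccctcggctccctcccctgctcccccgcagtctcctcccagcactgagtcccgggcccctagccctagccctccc
Col8a1: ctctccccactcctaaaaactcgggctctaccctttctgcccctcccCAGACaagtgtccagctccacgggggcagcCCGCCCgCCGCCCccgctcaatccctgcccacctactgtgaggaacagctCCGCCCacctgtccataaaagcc
Efemp1: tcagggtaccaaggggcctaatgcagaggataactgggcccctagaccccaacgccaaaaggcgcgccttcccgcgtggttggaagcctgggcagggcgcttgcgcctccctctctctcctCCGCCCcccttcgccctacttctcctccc
Sparc: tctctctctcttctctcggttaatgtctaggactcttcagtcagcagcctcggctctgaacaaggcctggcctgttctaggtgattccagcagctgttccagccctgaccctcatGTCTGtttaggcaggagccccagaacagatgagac
Col6a1: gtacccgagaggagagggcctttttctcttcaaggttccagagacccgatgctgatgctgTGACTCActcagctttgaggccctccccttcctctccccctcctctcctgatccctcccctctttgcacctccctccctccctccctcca

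The motif counts were made over the full window of 300 bases, 250 before and 50 after the start, and 50 of the 68 genes had such a window. TATAAA was present for 11 of the 50 and CCAAT for 20. GGGCGG was present for 30, TGANTCA for 3, CATTCC for 10, CAGAC for 31 and the CArG box for 1. Over the 27025 genes with a window, the shares holding each motif were 15.7% for TATAAA, 41.1% for CCAAT, 38.2% for GGGCGG, 8.97% for TGANTCA, 16.6% for CATTCC, 53.2% for CAGAC and 1.81% for the CArG box. Among the 12 genes with a window that were higher in knockout tissue, 9 held CAGAC, 7 held GGGCGG and 4 held TATAAA. Among the 14 that were lower, 8 held CAGAC, 8 held GGGCGG and 4 held TATAAA. In the stretches shown, Col3a1, Col8a1 and Sparc each carried a CAGAC match, read on the opposite strand as GTCTG in Col3a1 and Sparc, and Col3a1 also carried TATAAA. Col8a1 and Efemp1 carried GGGCGG, read as CCGCCC, Col1a2 carried CCAAT, and Col6a1 carried TGACTCA, which fits TGANTCA. A motif match describes letters in the window and is not a binding site, and matches of different motifs can share bases.

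Matrix genes moved in both directions. Of the 68 genes, 20 were higher in knockout tissue (29.4%, beside 21.6% of all genes), 18 were lower (26.5%, beside 27.7%) and 30 did not pass an adjusted p of 0.05. In either direction that makes 38 of 68, beside 49.2% of all genes. After the arrays were quantile-normalised again, the split was 22 higher and 7 lower. Over all genes, calls in either direction then went from 8959 to 7708. Of the 20 higher calls, 17 held in each of the 12 other settings that test all 68 genes (not Col16a1, Thbs3 and Dcn), and of the 18 lower calls 4 did (Col6a4, Fbln5, Col23a1 and Col13a1). A further setting, the filter at the median signal, leaves Postn, Thbs2, Col6a4, Col23a1 and Col13a1 untested. The larger changes were upward: 15 genes were higher by at least 2-fold (22.1%, beside 5.44% of all genes), and Fbln5 was the 1 gene lower by at least 2-fold (1.47%, beside 3.39%). The median log2 difference was 0.11 over the 68 genes and -0.11 over all genes. The groups did not overlap for 42 of the 68 genes (61.8%, beside 62.9%), 20 with the knockout arrays above (beside 25.7% of all genes) and 22 with them below (beside 37.1%). Leaving out knockout 1 lowered the count of genes that fell from 18 to 10, and leaving out knockout 2 lowered it to 9. Calls over all genes, in either direction, also dropped, from 8959 to 6277 without knockout 1 and to 6815 without knockout 2.

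**Figure D1:**
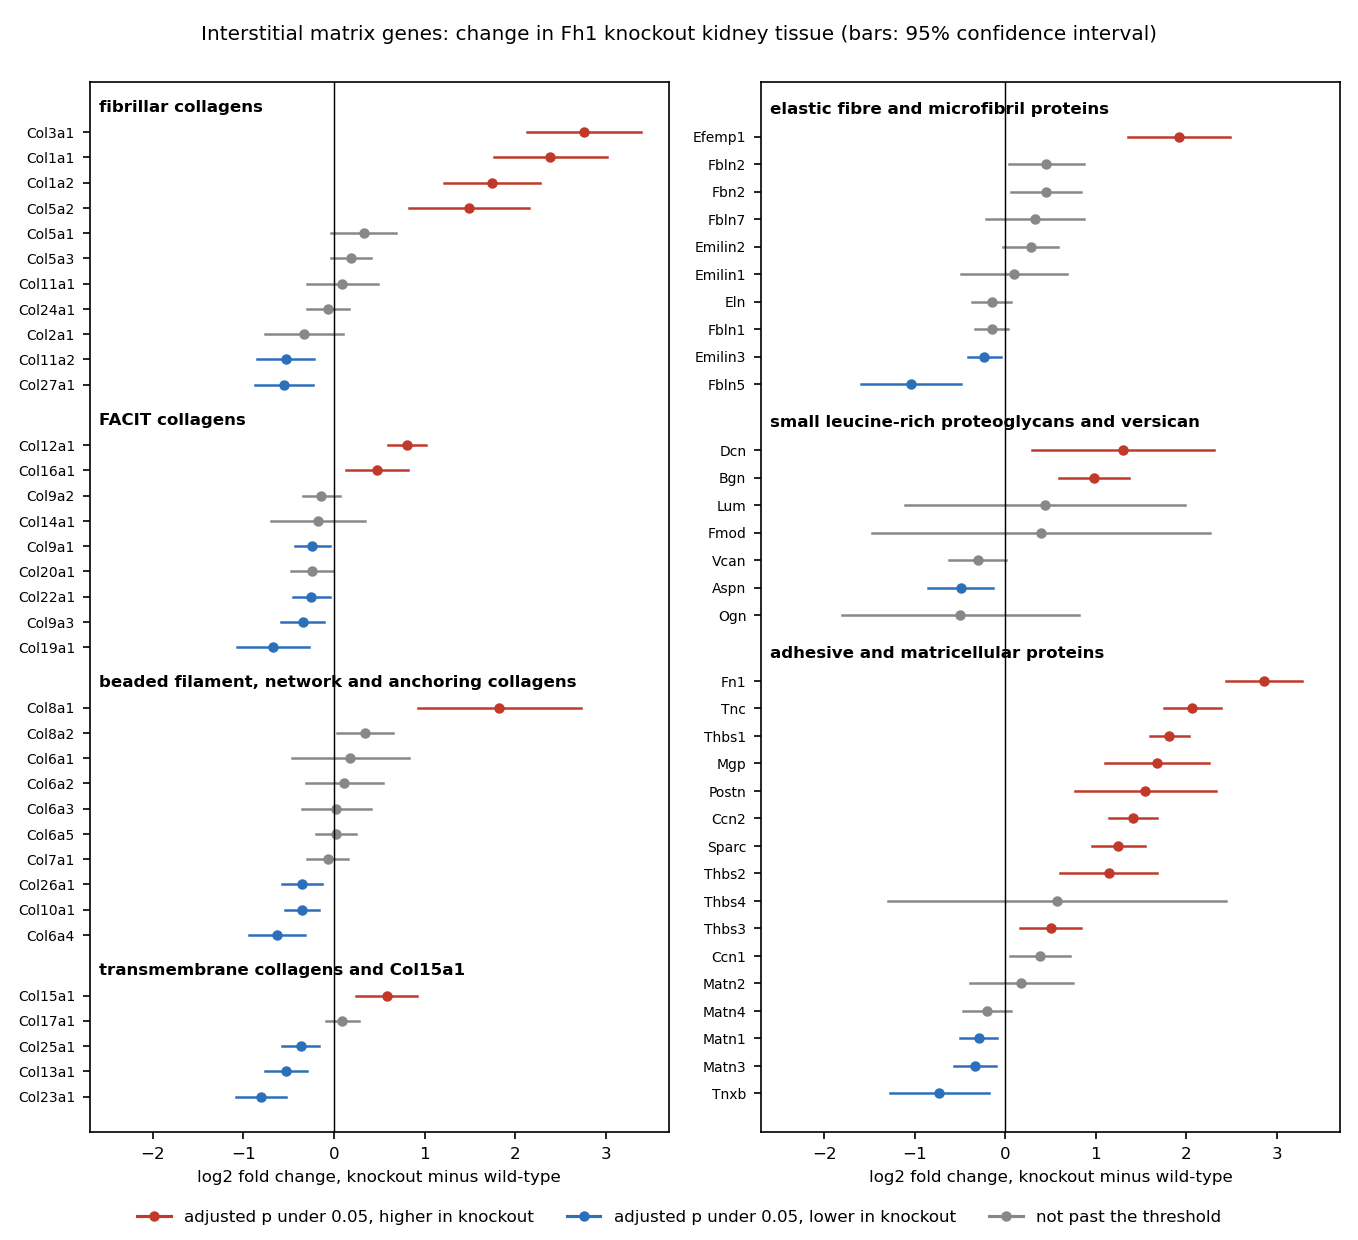
Log2 difference between knockout and wild-type tissue (horizontal axis) for each of the 68 matrix genes, grouped by role, with bars for the 95% confidence interval and n = 3 arrays per group. Red points passed the threshold as higher (20 genes), blue as lower (18) and grey did not pass (30), and the widest upward shifts are those of Fn1 (2.86) and Col3a1 (2.76).

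Direction went with signal, in part by construction. Of the 26 matrix genes at or above the median gene of the arrays (mean log2 value 7.37), 17 were higher (65.4%, beside 31.4% of all genes at that level) and 2, Fbln5 and Col27a1, were lower (beside 24.8%). Their median log2 difference was 1.11, beside 0.05 for all genes at that level. The level uses all 6 arrays, so a rise in knockout tissue itself lifts a gene towards this side. In the wild-type arrays alone, Col1a1 (6.78), Tnc (6.86), Col8a1 (6.77), Col15a1 (7.11) and Col16a1 (7.28), all called higher, averaged below 7.37. Of the 42 matrix genes below the median gene, 3 were higher (Postn, Thbs2 and Thbs3, beside 11.7% of all genes there) and 16 were lower (38.1%, beside 30.5%), with a median of -0.15, beside -0.19 for all genes there. RMA values carry no detection call, so whether the dim collagens and matrilins were expressed in this tissue cannot be read from them.

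**Figure D2:**
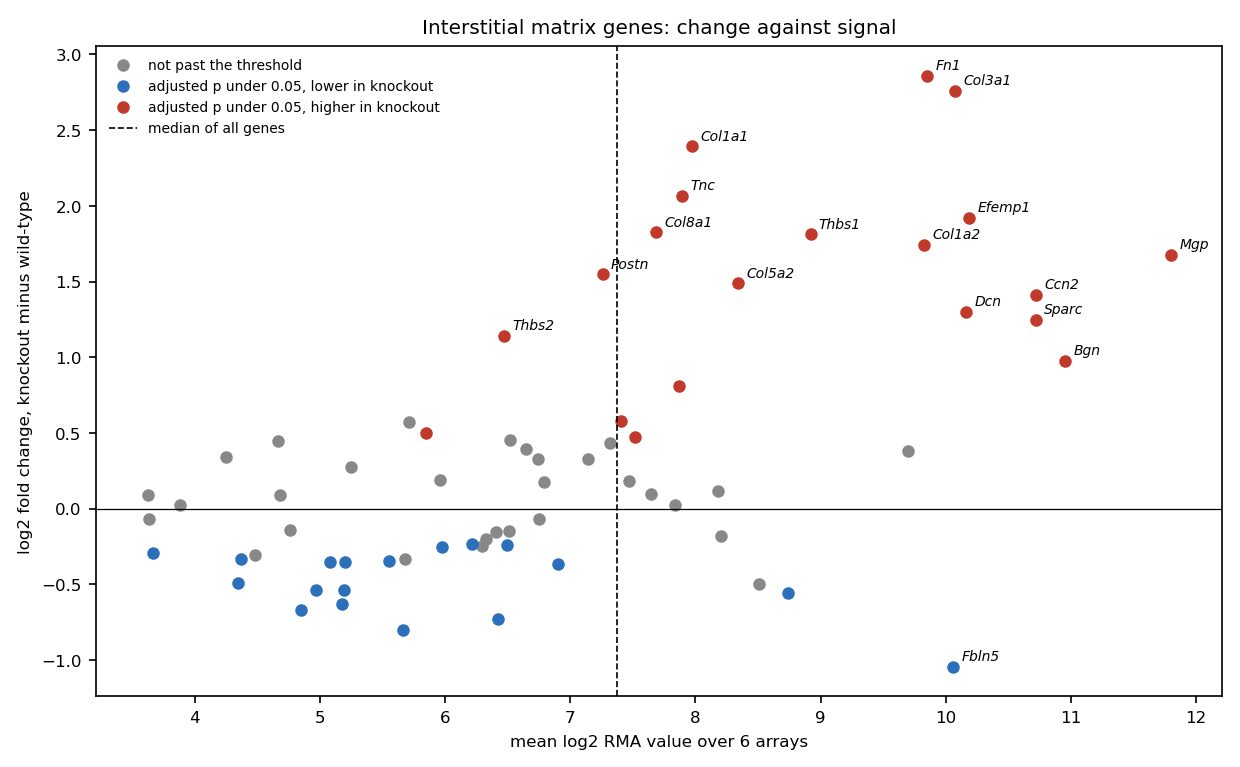
Log2 difference between knockout and wild-type tissue (vertical axis) against the mean log2 value over the 6 arrays (horizontal axis), 1 point per matrix gene, coloured by the test. The 26 genes at or above the median gene (7.37) hold 17 of the 20 higher calls, and the 42 below it hold 16 of the 18 lower calls.

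Fibrillar collagens form the load-bearing fibrils. Of 11 measured, 4 were higher (36.4%), 2 were lower (18.2%) and 5 did not pass, with a median log2 difference of 0.19. For these genes, and for each group and list that follows, the shares over all genes were 21.6% higher and 27.7% lower. The 4 that rose are the chains that build the fibrils of soft connective tissue. Col3a1, the chain of collagen III, was 8.65, 9.15 and 8.28 in the wild-type arrays and 10.93, 11.66 and 11.76 in the knockout arrays, 6.77-fold higher (log2 difference 2.76, SE 0.27, adjusted p = 0.000215). Every knockout array lay more than 1 log2 unit above every wild-type array. Col1a1, which supplies most chains of collagen I, was 7.03, 6.29 and 7.01 in wild-type and 8.70, 9.19 and 9.61 in knockout arrays, 5.25-fold higher (log2 difference 2.39, SE 0.27, adjusted p = 0.000396). Its partner chain Col1a2 was 8.94, 9.07 and 8.86 against 10.18, 10.73 and 11.19, 3.35-fold higher (1.74, SE 0.23, adjusted p = 0.000796). For both genes the groups were well apart, and knockout 1 was the lowest and knockout 3 the highest of the knockout arrays. Col5a2, a chain of collagen V, on which collagen I fibrils start, was 7.99, 7.03 and 7.75 against 8.60, 9.20 and 9.45, 2.81-fold higher (1.49, SE 0.29, adjusted p = 0.00455). The other chains of collagen V did not pass: Col5a1 had a log2 difference of 0.33 (95% confidence interval -0.03 to 0.69) and Col5a3 one of 0.19 (-0.04 to 0.41). Each passed when 1 array was left out, Col5a1 without knockout 1 (0.47, adjusted p = 0.0403) and Col5a3 without wild-type 3 (0.26, adjusted p = 0.0495).

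Most of the other fibrillar collagens are best known from cartilage. Col27a1 was 8.81, 9.28 and 8.95 in wild-type and 8.52, 8.29 and 8.57 in knockout arrays, 1.47-fold lower (log2 difference -0.55, SE 0.14, adjusted p = 0.0139). The groups did not overlap, but without knockout 2 the difference was -0.47 and the adjusted p 0.0525. Col11a2, a chain of collagen XI, was dim and 1.45-fold lower (-0.53, adjusted p = 0.0149), and without knockout 3 it was -0.43 with an adjusted p of 0.0519. Col2a1 (-0.33), Col11a1 (0.09) and Col24a1 (-0.07) did not pass.

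**Figure D3:**
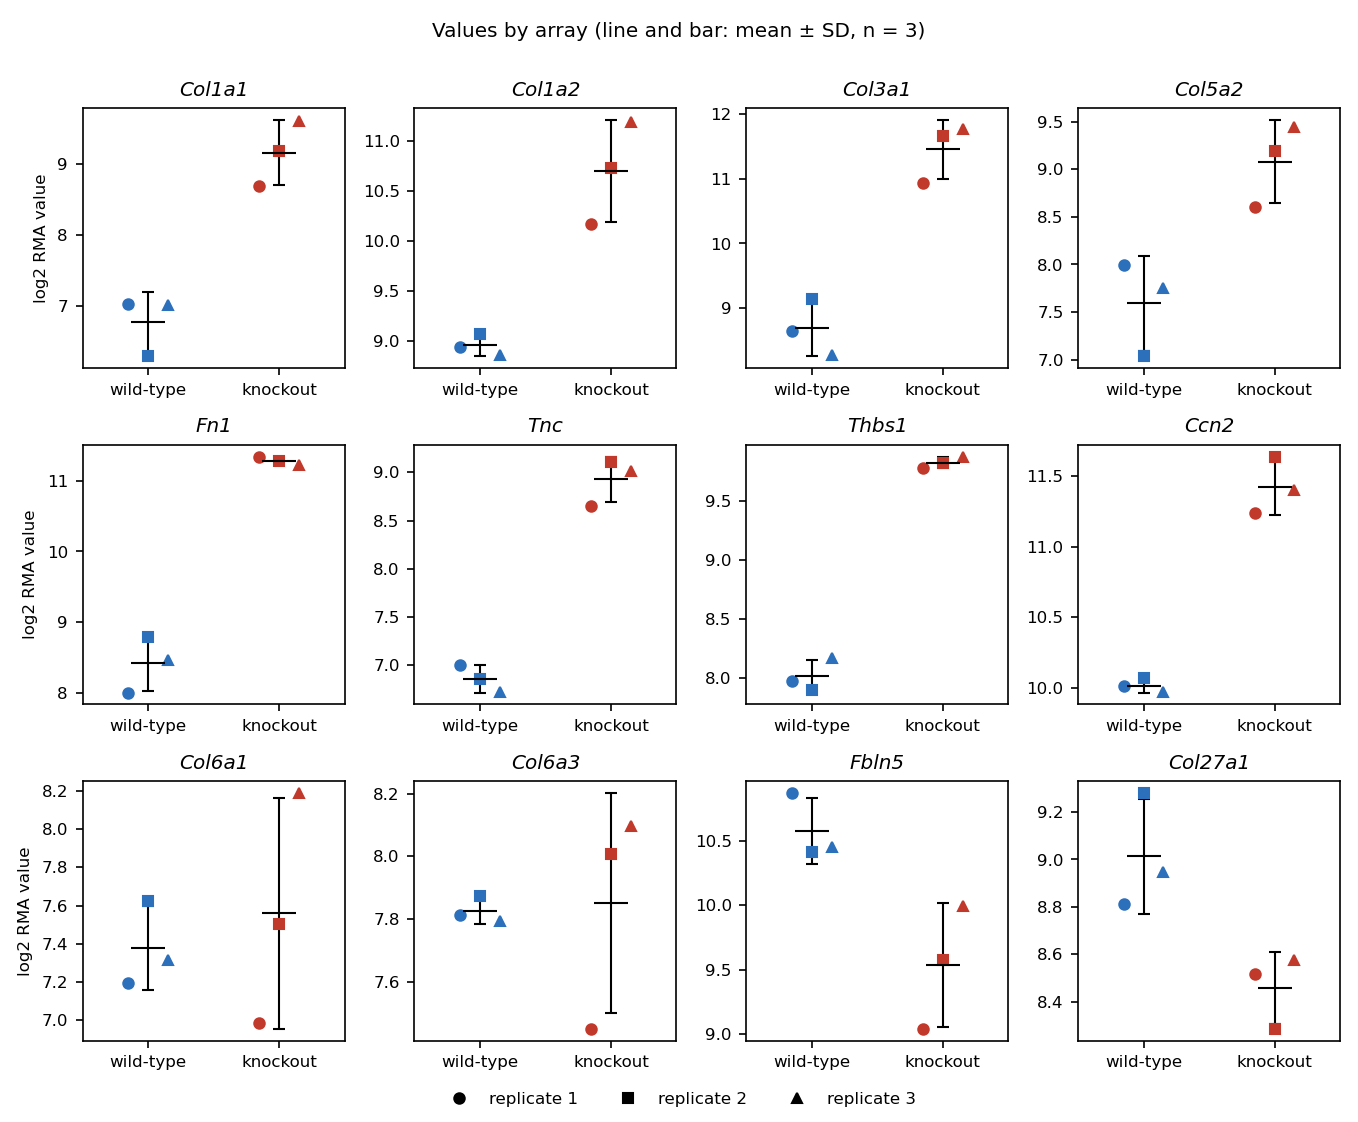
Log2 RMA value (vertical axis, its own range in each panel) in each wild-type and knockout array for 12 matrix genes, with the mean and SD of each group (n = 3). The groups stand apart for the 4 fibrillar collagens, Fn1, Tnc, Thbs1 and Ccn2 in the upward direction and for Fbln5 and Col27a1 in the downward one, and overlap for Col6a1 and Col6a3.

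The FACIT collagens (fibril-associated collagens with interrupted helices) sit on the surface of other fibrils. Of 9 measured, 2 were higher (22.2%, close to the share of all genes), 4 were lower (44.4%) and 3 did not pass, with a median log2 difference of -0.24. Col12a1, which coats collagen I fibrils, was 7.56, 7.44 and 7.40 in wild-type and 8.15, 8.32 and 8.36 in knockout arrays, 1.75-fold higher (log2 difference 0.81, SE 0.09, adjusted p = 0.0004). The groups did not overlap, and the arrays of each group lay close together. Of its other probe sets, 1434411_at rose by 1.92 on the log2 scale, while 1440101_at (-0.23) and 1445751_at (-0.12) did not pass. Col16a1 was 1.39-fold higher (0.48, adjusted p = 0.03), and its call was lost without knockout 2, knockout 3, wild-type 1 or wild-type 3, with differences of 0.33 to 0.49 and adjusted p of 0.0666 to 0.0821. Col14a1, which also binds collagen I fibrils, did not pass, at 8.42, 8.27 and 8.19 against 7.63, 8.10 and 8.62. Its knockout arrays spanned the wild-type range on both sides.

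The FACIT collagens that fell were dim. Col19a1 was 5.56, 4.83 and 5.16 in wild-type and 4.51, 4.58 and 4.46 in knockout arrays, 1.59-fold lower (log2 difference -0.67, adjusted p = 0.0149). Col9a3, a chain of the cartilage collagen IX, was 1.27-fold lower (-0.35, adjusted p = 0.0258), and without knockout 2 or knockout 3 its difference was -0.35 to -0.30 with adjusted p of 0.0676 to 0.0883. Col9a1, another chain of collagen IX, was lower by -0.24 (adjusted p = 0.0433). Its call was lost when any 1 of the 6 arrays was left out (-0.29 to -0.20, adjusted p of 0.055 to 0.142). Col22a1 was lower by -0.25 (adjusted p = 0.0464). Its call was lost without any array other than wild-type 2 (-0.29 to -0.21, adjusted p of 0.0688 to 0.144). Col9a2 (-0.14) and Col20a1 (-0.24) did not pass, although Col20a1 was lower without wild-type 1 (-0.31, adjusted p = 0.0425).

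The beaded filament, network and anchoring collagens form structures other than banded fibrils. Of 10 measured, 1 was higher (10%), 3 were lower (30%) and 6 did not pass, with a median log2 difference of 0.03. Col8a1, a short-chain collagen that forms networks around vessels, was 7.35, 6.80 and 6.17 in wild-type and 7.90, 8.59 and 9.30 in knockout arrays, 3.55-fold higher (log2 difference 1.83, SE 0.39, adjusted p = 0.00715). The groups did not overlap, although both spread by more than 1 log2 unit. Its partner Col8a2 was dim, had a log2 difference of 0.34 and did not pass, although it was higher without wild-type 2 (0.43, adjusted p = 0.0414).

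Collagen VI, the main beaded filament of the interstitium, did not pass for any of its 3 classical chains. Col6a1 was 7.20, 7.62 and 7.32 in wild-type and 6.98, 7.50 and 8.19 in knockout arrays (log2 difference 0.18, 95% confidence interval -0.47 to 0.83). Col6a2 was 8.07, 8.35 and 7.94 against 7.90, 8.22 and 8.59 (0.12, -0.31 to 0.54). Col6a3 was 7.81, 7.87 and 7.79 against 7.45, 8.01 and 8.10 (0.03, -0.36 to 0.41). The groups overlapped for all 3 chains, and for each of them knockout 1 was the lowest and knockout 3 the highest of the 6 arrays. The intervals stay under a log2 difference of 1 in either direction, and without knockout 3 the differences were -0.14, -0.06 and -0.10. Col6a4, a dim chain of the same family, was 5.36, 5.39 and 5.72 against 4.86, 5.05 and 4.68, 1.55-fold lower (-0.63, SE 0.13, adjusted p = 0.00696). Col10a1, the network collagen of growth cartilage, was 1.28-fold lower (-0.35, adjusted p = 0.00946). Col26a1 was also 1.28-fold lower (-0.35, adjusted p = 0.018), and without knockout 1 or knockout 2 its difference was -0.36 to -0.30 with adjusted p of 0.051 to 0.0718. Col6a5 (0.03) and Col7a1 (-0.07), the collagen of anchoring fibrils, did not pass.

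Of the 4 transmembrane collagens and Col15a1, 1 was higher (20%), 3 were lower (60%) and 1 did not pass, with a median log2 difference of -0.37. Col15a1, which lies at the border of basement membrane and interstitium, was 6.84, 7.28 and 7.22 in wild-type and 7.52, 7.67 and 7.89 in knockout arrays, 1.50-fold higher (log2 difference 0.58, SE 0.15, adjusted p = 0.0137). The groups were apart by a small margin. Col23a1 was 5.87, 6.02 and 6.30 against 5.20, 5.32 and 5.27, 1.74-fold lower (-0.80, SE 0.12, adjusted p = 0.00138). Col13a1, found at cell adhesion sites, was 1.45-fold lower (-0.53, adjusted p = 0.00393). Col25a1 was 1.29-fold lower (-0.37, adjusted p = 0.0122), and without knockout 1 it was -0.31 with an adjusted p of 0.0522. All 3 lay below the median gene, and in none of them did the groups overlap. Another probe set of Col25a1, 1438540_at, had a log2 difference of 0.01. Col17a1, a hemidesmosome collagen, was at 3.53 to 3.74 on all 6 arrays and did not pass.

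Elastic fibres are made of an elastin core laid on fibrillin microfibrils. Of 10 genes of this kind, 1 was higher (10%), 2 were lower (20%) and 7 did not pass, with a median log2 difference of 0.19. Fbn1 and Efemp2, whose symbols fit the choice, were not among the 10, so nothing is read here about them. Efemp1, which encodes fibulin-3, was 9.59, 9.47 and 8.63 in wild-type and 10.95, 11.20 and 11.30 in knockout arrays, 3.79-fold higher (log2 difference 1.92, SE 0.24, adjusted p = 0.000657). The lowest knockout array lay more than 1 log2 unit above the highest wild-type array. Fbln5, which encodes fibulin-5 and is needed for elastic fibre assembly, went the other way: it was 10.87, 10.41 and 10.45 in wild-type and 9.04, 9.58 and 9.99 in knockout arrays, 2.06-fold lower (-1.04, SE 0.24, adjusted p = 0.00946). Here knockout 3 was the nearest to the wild-type arrays and knockout 1 the farthest. Emilin3 was 1.17-fold lower (-0.23, adjusted p = 0.0404), and its call was lost without any array other than wild-type 3 (-0.26 to -0.19, adjusted p of 0.0625 to 0.137).

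Elastin itself did not pass. Eln was 6.59, 6.56 and 6.59 in wild-type and 6.28, 6.56 and 6.46 in knockout arrays (log2 difference -0.15, 95% confidence interval -0.36 to 0.06). Fbn2, which encodes a fibrillin of microfibrils, had a log2 difference of 0.45 (adjusted p = 0.0557), and Fbln2 one of 0.45 (adjusted p = 0.0664). Fbln1 (-0.15), Fbln7 (0.33), Emilin1 (0.10) and Emilin2 (0.28) did not pass either. Leaving out 1 array made 3 of these genes higher: Fbn2 without wild-type 1 (0.60), Fbln2 without knockout 1 (0.61) or wild-type 2 (0.60), and Fbln7 without knockout 1 (0.58).

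Small leucine-rich proteoglycans bind collagen and limit the width of fibrils. Of the 6 measured and versican (Vcan), 2 were higher (28.6%), 1 was lower (14.3%) and 4 did not pass, with a median log2 difference of 0.39. Bgn, which encodes biglycan, was 10.55, 10.45 and 10.41 in wild-type and 11.04, 11.63 and 11.67 in knockout arrays, 1.97-fold higher (log2 difference 0.98, SE 0.17, adjusted p = 0.00267). The groups did not overlap. Dcn, which encodes decorin, was 9.67, 9.38 and 9.49 against 9.93, 10.59 and 11.92, 2.47-fold higher (1.30, SE 0.43, adjusted p = 0.0386). Its knockout arrays were above the wild-type ones but spread over almost 2 log2 units. The call was lost without knockout 2 or any 1 of the wild-type arrays (1.23 to 1.41, adjusted p of 0.0692 to 0.0922), and without knockout 3 the difference was 0.75 (adjusted p = 0.0292). Another Dcn probe set, 1441506_at, had a log2 difference of -0.20 and did not pass. Aspn, which encodes asporin, was dim and 1.41-fold lower (-0.49, adjusted p = 0.0327), and without knockout 1, knockout 2 or wild-type 2 its difference was -0.47 to -0.34 with adjusted p of 0.0645 to 0.109. Vcan, a large proteoglycan of loose matrix, had a log2 difference of -0.30 and did not pass, except without wild-type 2 (-0.42, adjusted p = 0.0288), while 2 of its 8 probe sets were lower (1447586_at at -0.52 and 1459767_x_at at -0.55).

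Knockout 3 stood above the other knockout arrays for 5 matrix genes by more than 1 log2 unit, beside 0.258% of all genes. The 5 are Thbs4, Fmod, Lum, Ogn and Dcn, and apart from Thbs4, a thrombospondin of tendon and muscle, they encode small leucine-rich proteoglycans. Thbs4 was 5.33, 5.60 and 5.35 in wild-type and 4.90, 4.89 and 8.21 in knockout arrays. Fmod, which encodes fibromodulin, was 6.25, 6.21 and 6.90 against 5.46, 6.09 and 8.99. Lum, which encodes lumican, was 7.01, 7.48 and 6.80 against 6.40, 6.90 and 9.29. For these genes knockout 1 and knockout 2 lay among or below the wild-type values and knockout 3 far above them. Ogn, which encodes osteoglycin, was 9.26, 8.82 and 8.19 against 7.22, 7.94 and 9.62. None of Thbs4, Fmod, Lum and Ogn passed over the 6 arrays, with log2 differences of 0.57, 0.39, 0.43 and -0.50. Without knockout 3, Thbs4 was lower (-0.53, adjusted p = 0.0152), as was Ogn (-1.18, adjusted p = 0.0358), whose difference was 0.02 without knockout 1. Fmod (-0.68, adjusted p = 0.0882) and Lum (-0.45, adjusted p = 0.170) did not pass without it.

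Adipocyte genes were also high in knockout 3. A list of 10 adipocyte markers was added after the values were seen, and 8 of them were measured, of which 0 were higher and 1 lower between the groups. Their mean log2 value was 7.35, 8.44 and 7.14 in the wild-type arrays and 6.50, 6.26 and 8.38 in the knockout arrays. Adipoq, which encodes the fat-cell hormone adiponectin, was 6.65, 10.73 and 6.72 in wild-type and 5.60, 4.32 and 10.30 in knockout arrays. Knockout 3 was the highest knockout array for 7 of the 8 markers. Wild-type 2 was the highest wild-type array for 6 of them and the lowest for 2, 1 of which was Cidea (5.06, beside 7.30 in knockout 3). Of the 5 matrix genes, wild-type 2 was the highest wild-type array for Thbs4 (5.60) and Lum (7.48), the lowest for Fmod (6.21) and Dcn (9.38), and in between for Ogn (8.82). The part of fat tissue in these results was not tested.

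**Figure D4:**
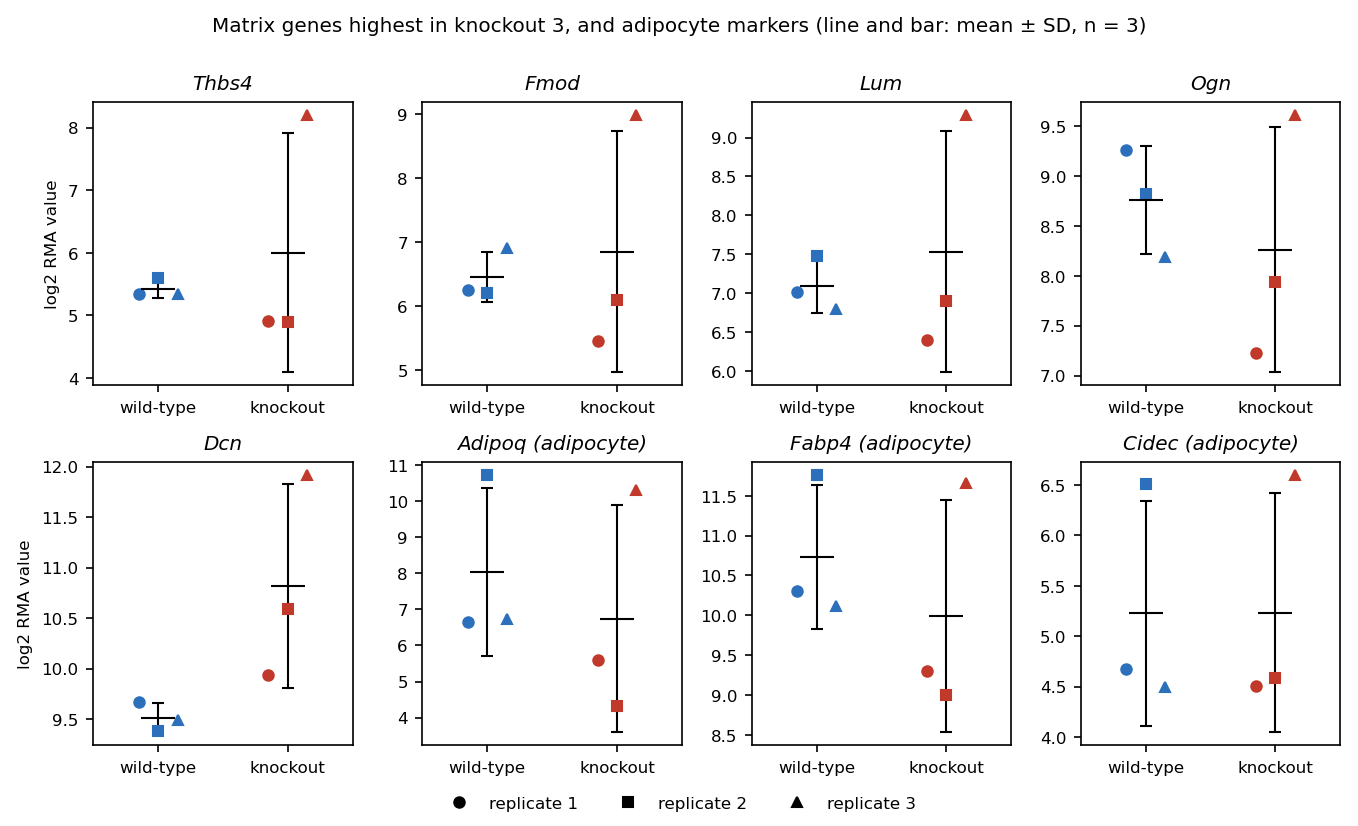
Log2 RMA value (vertical axis, its own range in each panel) in each array for the 5 matrix genes more than 1 log2 unit higher in knockout 3 than in the other knockout arrays, and for 3 adipocyte markers, with the mean and SD of each group (n = 3). Knockout 3 is the highest array for all 5 matrix genes, while Adipoq is high in both knockout 3 (10.30) and wild-type 2 (10.73).

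The order of the knockout arrays was shared by many matrix genes. Knockout 3 was the highest knockout array for 43 of the 68 (beside 33.7% of all genes), knockout 1 was the lowest for 45 (beside 34.7%), and both held for 38 (beside 18.4%). Among the 20 genes that were higher in knockout tissue, these counts were 17, 18 and 16. The same counts were not made over all genes that were higher. Whether this order is particular to the matrix genes that rose was therefore not tested. The median SD between knockout arrays was 0.194 log2 units over the matrix genes and 0.0857 over all genes, whereas between wild-type arrays it was 0.156 and 0.138. Without knockout 3, 18 matrix genes were higher and 13 lower, with a median log2 difference of -0.06. Col1a2, at 10.18 in knockout 1 and 11.19 in knockout 3, is one of the genes with this order.

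Adhesive and matricellular proteins connect cells to the fibrils or act on cells from within the matrix. Of 16 measured, 9 were higher (56.2%), 3 were lower (18.8%) and 4 did not pass, with a median log2 difference of 0.86. Fn1, which encodes fibronectin, was 8.01, 8.79 and 8.47 in wild-type and 11.34, 11.28 and 11.22 in knockout arrays, 7.25-fold higher (log2 difference 2.86, SE 0.18, adjusted p = 3.91e-05). The knockout arrays lay closer together than the wild-type arrays, and knockout 3 was the lowest of them. Tnc, which encodes tenascin C of healing and growing tissue, was 7.00, 6.85 and 6.72 against 8.65, 9.10 and 9.02, 4.19-fold higher (2.07, SE 0.14, adjusted p = 4.42e-05). Thbs1, which encodes a thrombospondin that can release TGF-beta from its latent form, was 7.98, 7.90 and 8.17 against 9.78, 9.82 and 9.88, 3.51-fold higher (1.81, SE 0.09, adjusted p = 2.3e-05). For Tnc and Thbs1 the gap between the groups was wider than the range within either group. Mgp, which encodes a matrix protein that inhibits calcification, was 11.39, 10.76 and 10.73 against 12.15, 12.82 and 12.94, 3.19-fold higher (1.68, SE 0.25, adjusted p = 0.00139).

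Further matricellular genes rose by smaller amounts. Postn, which encodes periostin, was 6.56, 6.90 and 5.99 in wild-type and 7.47, 7.90 and 8.73 in knockout arrays, 2.92-fold higher (log2 difference 1.55, adjusted p = 0.00777). Ccn2, which encodes connective tissue growth factor, was 10.01, 10.07 and 9.97 against 11.24, 11.64 and 11.40, 2.66-fold higher (1.41, adjusted p = 9.11e-05). Thbs2 was 5.90 in each of the 3 wild-type arrays and 6.51, 7.05 and 7.57 in the knockout arrays, 2.20-fold higher (1.14, adjusted p = 0.00585). The groups overlapped for none of the 3 genes, and the knockout arrays were tightest for Ccn2 and most spread for Postn. Thbs3 was 1.42-fold higher (0.50, adjusted p = 0.024), and its call was lost without knockout 1, knockout 3, wild-type 1 or wild-type 3 (0.36 to 0.54, adjusted p of 0.0502 to 0.0695). Sparc, which encodes a collagen-binding glycoprotein, was 10.10, 10.26 and 9.93 against 11.15, 11.38 and 11.51, 2.38-fold higher (1.25, SE 0.13, adjusted p = 0.000237). Another Sparc probe set, 1448392_at, was also higher (1.46), but 1458204_at was lower (-0.37).

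The 3 adhesive genes that fell were Tnxb, Matn3 and Matn1. Tnxb, which encodes the tenascin of collagen-rich connective tissue, was 6.65, 6.94 and 6.76 in wild-type and 5.48, 6.21 and 6.48 in knockout arrays, 1.66-fold lower (log2 difference -0.73, SE 0.24, adjusted p = 0.0352). Without knockout 1 the difference was -0.44 (adjusted p = 0.0442), and the call was lost without knockout 2 or any 1 of the wild-type arrays (-0.81 to -0.65, adjusted p of 0.0568 to 0.0788). Matn3 and Matn1 encode cartilage matrilins and were dim. Matn3 was lower by -0.33 (adjusted p = 0.0258), and its call was lost without any array other than wild-type 2 (-0.36 to -0.28, adjusted p of 0.0529 to 0.0911). Another Matn3 probe set, 1455948_x_at, had a log2 difference of 0.02. Matn1 was lower by -0.29 (adjusted p = 0.0262), and without knockout 1, knockout 3 or wild-type 1 it did not pass (-0.31 to -0.23, adjusted p of 0.0621 to 0.0948). Matn2 (0.18) and Matn4 (-0.20) did not pass, although Matn4 was lower without wild-type 2 (-0.32, adjusted p = 0.0286).

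Ccn1, which encodes a matricellular relative of Ccn2, gave opposite readings from its 4 probe sets. The brightest, 1416039_x_at, was 9.37, 9.33 and 9.82 in wild-type and 9.99, 9.77 and 9.92 in knockout arrays and did not pass (log2 difference 0.38, adjusted p = 0.0562), except without wild-type 3 (0.54, adjusted p = 0.00456). 1438133_a_at was lower (-0.33, adjusted p = 0.0190 over all probe sets). 1442340_x_at was 4.51, 4.65 and 4.96 against 8.12, 7.83 and 8.60, a log2 difference of 3.47. 1457823_at was 4.55, 4.71 and 4.77 against 8.17, 7.82 and 8.59, a difference of 3.52. These last sets read Ccn1 as 11.1-fold and 11.5-fold higher in knockout tissue, and which set follows the Ccn1 transcript was not tested.

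Other probe sets of the genes that rose mostly rose too. Of the 20 higher genes, 13 had further probe sets, and for 12 of these another set was also higher. Sparc, 1 of those 12, also had a set that was lower, and for the remaining gene, Dcn, no other set passed. Of the 18 lower genes, 12 had further probe sets, for 3 of them another set was also lower, and for 9 no other set passed. Col1a1 (2.39 and 1.58), Col3a1 (2.76 and 2.74) and Fn1 (2.86 and 2.64) rose by both of their probe sets. Among genes that did not pass by their brightest set, besides Ccn1 and Vcan, Col5a1 was higher by 1416740_at (0.67). Col14a1 was lower by 1428455_at (-0.66) and Col20a1 by 1425236_at (-0.24).

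**Figure D5:**
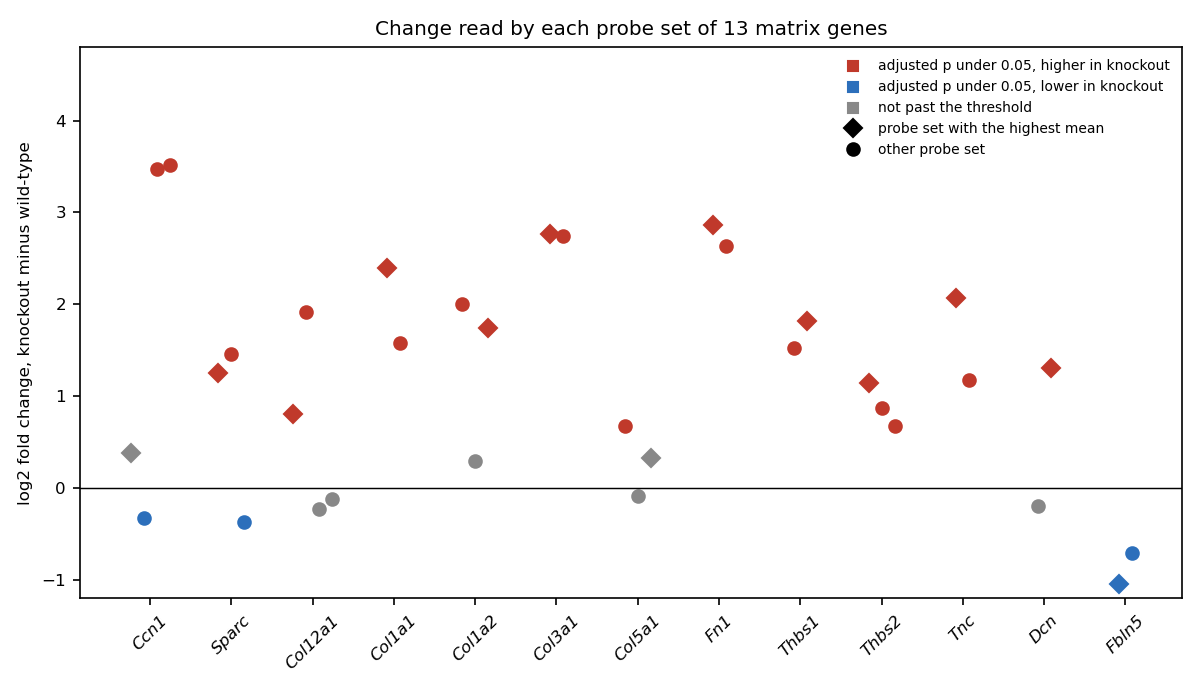
Log2 difference between knockout and wild-type tissue (vertical axis) for every probe set of 13 matrix genes (horizontal axis), with a diamond for the set with the highest mean and circles for the others, coloured by the test over all probe sets. Both sets of Col1a1, Col3a1 and Fn1 are higher, while those of Ccn1 run from -0.33 to 3.52.

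The enzymes and carriers that modify, fold and crosslink collagen were read from a list of 32 genes, of which 28 were measured. Of these, 10 were higher (35.7%, beside 21.6% of all genes), 3 were lower (10.7%, beside 27.7%) and 15 did not pass, with a median log2 difference of 0.17. Plod2, a lysyl hydroxylase that prepares collagen ends for crosslinking, rose by 1.35 on the log2 scale, and Lox, which makes the crosslinks, rose by 1.28. P4ha1 (1.14) and P4ha2 (1.16), catalytic subunits of the prolyl hydroxylase that stabilises the collagen helix, were also higher, and are named after their values were seen. P4ha3 (-0.18) and P4hb (-0.22) did not pass. Of the P3h genes of the list, P3h2 was lower (-0.69), while P3h1 (0.20), P3h3 (0.06) and P3h4 (0.48) did not pass. Colgalt2, which adds galactose to collagen, fell by 1.00 on that scale. Its brighter relative Colgalt1, also named after its values were seen, rose by 1.22, from a mean of 8.67 in wild-type to 9.89 in knockout arrays.

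Matrix breakdown and its inhibitors gave 12 higher (52.2%), 3 lower (13.0%) and 8 uncalled genes of 23 measured, with a median log2 difference of 0.39. Timp1, an inhibitor of matrix metalloproteinases, rose by 2.50, and Adamts1, a protease that cuts proteoglycans, rose by 2.29. Timp3, another inhibitor of the family, fell by 0.57. Both a protease and an inhibitor were thus among the genes with the largest rises.

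Of 18 matrix receptors, 7 were higher (38.9%), 2 were lower (11.1%) and 9 did not pass, with a median log2 difference of 0.25. Cd44, the hyaluronan receptor, rose by 4.05 and Sdc1, a heparan sulphate proteoglycan of the cell surface, by 1.94, while Itga8, an integrin subunit of mesenchymal cells, fell by 0.96. Of 16 genes of the TGF-beta axis, the pathway best known for raising collagen transcription, 12 were higher (75%), 2 were lower (12.5%) and 2 did not pass, with a median of 0.85. Ltbp2 (2.20) and Ltbp3 (1.44), of the family named for binding latent TGF-beta, rose the most of the list, and Tgfbr3, a co-receptor, fell by 0.52. The family name does not by itself show that each member binds it.

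The 7 basement membrane collagens, which form sheets under epithelia in place of interstitial fibrils, split into 4 higher (57.1%) and 3 lower (42.9%), with a median log2 difference of 0.92. Col4a1, which is found in most basement membranes, rose by 1.61 and Col18a1 by 1.37, and Col4a3, a chain of the glomerular basement membrane, fell by 0.59.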

How the data were processed

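The authors deposited 1 table of log2 expression values for 45101 probe sets on 6 Affymetrix arrays. RMA (background correction, normalisation between arrays and summary of probes) is named per the submitters' processing notes, and neither its version nor its software is given in those sources. The log2 scale was read from the deposited values, which ran from 2.95 to 14.82. Arrays carry no read depth, so their number, 3 per group, limits the precision, and folds of dim genes are compressed.

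Probe sets were named by GEO's platform annotation: 34945 had 1 symbol, 932 several and 9160 none, and 64 were controls. Of those with 1 symbol, 34741 were matched to current names in RefSeq's GRCm38.p6 table and 204 kept the annotation's name. Several of a probe set's symbols gave no name, which left out 1 probe set shared by Pald1 and Thbs1. Each gene was read by its probe set with the highest mean. Knockout was compared with wild-type on all 6 arrays with limma 3.58.1 (lmFit and eBayes, two-sided) in R 4.3.3, with Benjamini-Hochberg adjustment over 18193 genes and a threshold of 0.05. Values of single probe sets were adjusted over all probe sets. Figures were drawn with matplotlib 3.10.9 in Python 3.11.15. Array medians over genes ran from 7.31 to 7.43, and 80.4% of the variance lay on principal component 1. On simulated data for 18193 genes, 16% of changes of 0.5 log2 units, 85% of changes of 1 and 98% of changes of 2 were recovered, with 5 false calls among 147. The simulation changed only a small share of the genes, whereas 49.2% of genes passed in the data. The adjusted threshold was therefore stricter in the simulation, and these shares do not give the recovery in the data.

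The genes, role groups, related lists and marker lists were chosen with earlier results of these data known. Within each role group the text names the 4 called genes with the largest change, the called gene that moved most the opposite way, then genes whose probe sets disagree, whose call 1 array ends, or that did not pass. In each related list it names the top 2 called genes by size of change and the top one of opposite sign. Alternatives were averaging all probe sets of a gene, a trended robust prior, a filter at the median signal, re-centred or re-normalised arrays, array weights, the replicate number as a block, leaving out each array, a 2-fold minimum, unchanged annotation symbols and single probe sets.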

Additional observations from a re-analysis of the deposited data

How the results depend on the processing

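Over all genes, 8959 passed the threshold, and 5278 when genes below the median signal were left out, which tests fewer genes. The count was 7708 after quantile normalisation and 6277 to 8670 when 1 array was left out. Matrix genes that were higher numbered 20, and 18 to 22 when 1 array was left out. Those that were lower numbered 18, but 2 with the signal filter, 7 after quantile normalisation, 1 with a 2-fold minimum, and 9 to 16 when 1 array was left out (10 without knockout 1, 9 without knockout 2). The median log2 difference over matrix genes was 0.11, 1.11 with the signal filter, and -0.06 to 0.27 when 1 array was left out. The list of matrix breakdown genes went from 15 called to 7 with the signal filter, which removes dim genes from it. Where the reported or the alternative value passed the threshold, the sign turned for Thbs4 without knockout 3 (-0.53, and up to 1.13 when another array was left out) and for other probe sets of Col12a1 (-0.23 and -0.12), Matn3 (0.0203), Ccn1 (-0.33), Sparc (-0.37), Dcn (-0.20) and Col25a1 (0.0102), and the cause was not tested. It also turned in 32 values of 19 genes where neither passed, among them Fmod (-0.68), Lum (-0.45), Emilin1 (-0.18) and Col6a1 (-0.14) without knockout 3. The unchanged annotation symbols gave the same 68 genes. RMA values without a detection call limit what can be read from dim genes, and 3 arrays per group limit small changes.

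Same-numbered samples of the groups did not deviate together (correlations of -0.10, -0.13 and -0.13). With so few arrays per group, these correlations cannot decide whether the numbers pair the samples. With the replicate number as a block, 7440 genes passed, and 21 matrix genes were higher and 13 lower: Fbln2 passed (adjusted p = 0.0491) and Col22a1, Col9a1, Matn3, Matn1 and Emilin3 did not.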

Other observations

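Knockout 3 stood more than 1 log2 unit above the other knockout arrays for 47 genes, and 7 of the 10 with the widest gap are not matrix genes. The widest gap was that of Adipoq (4.70). Thrsp, a regulator of lipid synthesis, was 6.99, 7.93 and 6.17 in wild-type and 5.51, 5.05 and 9.48 in knockout arrays. Car3, a carbonic anhydrase abundant in fat and muscle, was 10.13, 12.58 and 10.01 against 8.53, 6.86 and 12.48, and Fabp4, the fatty acid binding protein of fat cells, was 10.31, 11.76 and 10.12 against 9.31, 9.00 and 11.66. For these genes wild-type 2 was the highest wild-type array. Retnla, a secreted protein of macrophages and fat, was 5.72, 6.87 and 6.05 against 5.19, 5.55 and 8.91. Cidea, a lipid droplet protein, was 5.81, 5.06 and 5.37 against 4.37, 4.52 and 7.30, with wild-type 2 the lowest wild-type array. Hp, which encodes haptoglobin, was 6.38, 7.48 and 6.26 against 6.34, 6.52 and 9.55.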
